A study of Mus musculus with 11 samples.

Results

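Fcna-retaining stellate cells at 72 h are the cells of one 10X Chromium library that carried appreciable RNA of Fcna 72 h after a single dose of carbon tetrachloride (CCl4). The members were chosen by their own Fcna counts: a cell of the 72 h library belonged if it had at least 300 genes, at most 30% of its unique molecular identifiers (UMIs) from mitochondrial genes and Fcna at 500 or more of every 1000000 UMIs of the cell (counts per 1000000 UMIs, CPM). This gave 789 of the 7310 cells kept from that library, a share of 10.8% (95% exact Clopper-Pearson interval 10.1 to 11.5), out of 30999 cells kept over the 5 10X libraries. They were set beside the 2257 cells of the same library with no Fcna UMI (Fcna-zero cells), beside the 4264 cells between these limits (Fcna-low cells), and beside the 6850 cells of the uninjured library made with the same isolation.

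Both libraries came from adult male mice of C57BL/6 background that carried the Pdgfrb-BAC-eGFP reporter, in which the Pdgfrb promoter drives GFP in mesenchymal cells. The uninjured mice carried the same reporter and were given no CCl4, and the 72 h mice received one intraperitoneal injection. Livers were perfused with the enzymes used to isolate hepatic stellate cells (HSCs), enriched on a density gradient and sorted as GFP+ CD45- CD102- cells, a gate that removes leucocytes and endothelial cells and keeps other cells that carry the reporter. The cells of 3 mice were pooled in each library, so each condition was 1 sample, no test between conditions was possible, and injury and library cannot be told apart. All intervals below are exact 95% Poisson, binomial or ratio intervals that cover counting error only.

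HSCs lie in the space between hepatocytes and sinusoidal endothelium, store vitamin A as retinyl esters and secrete growth factors and soluble pattern-recognition proteins. After injury they lose lipid droplets, divide, and turn into contractile cells that make fibrillar collagen. Fcna encodes ficolin A, a soluble lectin that binds sugars on microbes and starts the lectin pathway of complement together with serine proteases of the MASP family. Colec10 and Colec11 encode collectins that feed the same pathway and are well known products of stellate cells.

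The 72 h library was the deeper one, with 86664085 UMIs against 46392040 in the uninjured library and a median of 11344 against 6718 UMIs per cell. Within the 72 h library the members had a median of 9947 UMIs and 3022 genes, near the 9644 UMIs and 2937 genes of Fcna-zero cells and below the 12277 UMIs and 3355 genes of Fcna-low cells. Their median mitochondrial share was 2.74%, against 2.85% in Fcna-zero cells. A doublet caller marked 23 members (2.92%), 306 Fcna-low cells (7.18%) and 98 Fcna-zero cells (4.34%), and 32, 152 and 60 cells of these groups carried a barcode also seen in another library. Called doublets and shared barcodes were kept, and leaving them out moved none of the counts of HSC identity, activation, portal and all genes for which this was run by more than 1.5 times.

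Cells that met a marker list of another cell type were scarcer among the members than among the Fcna-zero cells. UMIs of at least 3 genes of 1 such list were found in 39 members (4.94%, interval 3.54 to 6.70) and in 596 Fcna-zero cells (26.4%, interval 24.6 to 28.3). Most of these cells met the fibroblast list of 9 genes, with 33 members (4.18%) and 538 Fcna-zero cells (23.8%), beside 731 Fcna-low cells (17.1%). Its 5 genes with a mean of at least 10 CPM were all at least 1.5-fold higher in the members than in uninjured cells. Over all such genes that share was 10.4%. Whether cells that met this list were fibroblasts was not tested. The summed level of that list was 222 CPM in the members, 553 in Fcna-zero cells and 31.4 in uninjured cells, and its most abundant gene was Gpx3 in all of these groups. The smooth muscle list of 5 genes was met by 4 members and 123 Fcna-zero cells, and summed to 416 CPM in the members and 431 in Fcna-zero cells, with Tpm2 most abundant (392 and 353 CPM) and Pln without a UMI in the members. The 14 Kupffer cell and leucocyte genes summed to 5.22 CPM in the members, with Ptprc, Clec4f, Timd4, Adgre1 and Csf1r at 0, and no member met that list. The 8 endothelial genes summed to 4.84 CPM, with Cdh5 and Oit3 at 0. The 7 hepatocyte genes summed to 20.6 CPM in the members against 111 in Fcna-zero cells, where Apoa1 was most abundant. Without called doublets this order turned round for Alb and Apoa1, with log2 differences from Fcna-zero cells of 0.36 and 0.50. The 5 cholangiocyte genes summed to 1.40, the 4 Schwann genes to 2.29 (2.12 in Fcna-zero cells), and the 4 mesothelial genes were at 0. Counts of genes that differ from Fcna-zero cells were therefore also taken without every cell that met a list.

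Fcna itself was scarce at 72 h in most cells. Among the members it ran from 500 to 2744 CPM with a median of 697, and the uninjured cells had a median of 2836. No member reached the uninjured median, and 574 members (72.8%) lay at or above 589 CPM, the 5th percentile of the uninjured cells. These values describe the selection, since they are what chose the members, and whether the RNA was kept from before injury or made anew was not tested. An Fcna UMI was present in 69.1% of the 72 h cells and in 99.4% of the uninjured cells, of which 6600 (96.4%) met the threshold and 44 had no Fcna UMI. In the libraries made with the isolation for portal fibroblasts, an Fcna UMI was found in 11 of 5737 uninjured cells (0.192%) and 9 of 5648 cells after 6 weeks of CCl4 (0.159%), at medians of 4300 and 5097.5 UMIs per cell. Free RNA in the 72 h library itself was not tested.

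The threshold cuts through a continuous range. There were 571 cells between 400 and 600 CPM, the highest cell below the threshold had 499 CPM, and 1 member lay exactly at 500. Most members rested on few molecules, with 23 members at 2 Fcna UMIs, 224 at 3 to 5, 392 at 6 to 10, 139 at 11 to 20 and 11 above that. The 142 members between 500 and 550 CPM had 1762 CPM of Ecm1, 862 of Angptl6 and 716 of Col1a1, and the 160 cells between 450 and 500 had 1722, 774 and 955. When each cell was thinned to 4000 UMIs and the rule was applied to the thinned counts, 19.4% of the cells met it, so the share depends on depth.

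**Figure D1:**
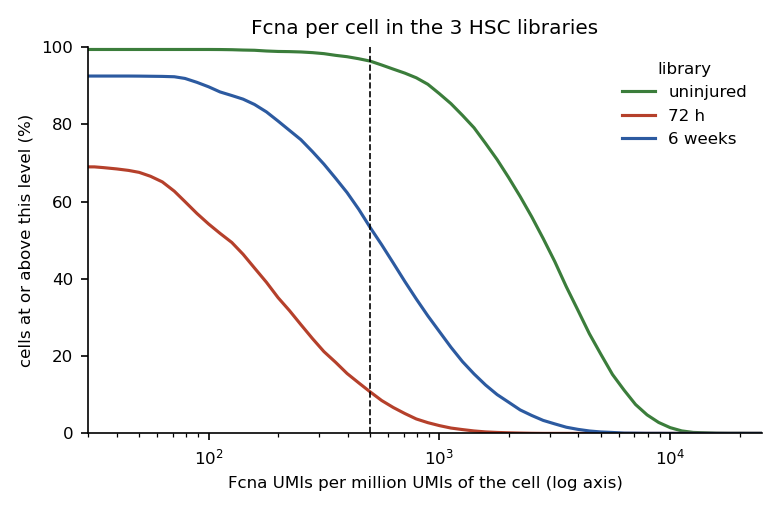
Share of cells (%) at or above a given Fcna level, in CPM of the cell on a log axis, for the 3 libraries made with the HSC isolation; the dashed line is the threshold of 500. At the threshold the curves stand at 10.8% of 72 h cells, 53.4% of cells after 6 weeks of CCl4 and 96.4% of uninjured cells.

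Levels of other genes were taken from UMIs summed over the cells of a group and scaled to CPM, with Fcna left out of every count of genes. Of 7806 genes with a mean of at least 10 CPM over members, Fcna-zero and uninjured cells, 503 (6.44%) were at least 1.5-fold higher in the members than in Fcna-zero cells and 339 (4.34%) at least 1.5-fold lower. These shares are the background for each list below. Counted as mean UMIs per cell without scaling, the same comparison gave 402 higher and 422 lower.

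Beside Fcna, 3 genes had been named as markers of these cells. Ecm1, on chromosome 3 (mm10, 95734147 to 95739569), encodes an extracellular matrix protein that restrains latent TGF-beta. Its level was 2014 (1983 to 2046) CPM in the members, 948 in Fcna-low cells, 544 in Fcna-zero cells and 15298 in uninjured cells. The members were thus 3.70-fold above the Fcna-zero cells and 7.60-fold below the uninjured cells. Angptl6, on chromosome 9 (20873808 to 20879727), encodes a secreted angiopoietin-like protein. Its level was 907 (886 to 928) CPM in the members, 435 in Fcna-low, 255 in Fcna-zero and 2695 in uninjured cells, 3.56-fold above and 2.97-fold below. Adm, on chromosome 7 (110627661 to 110629820), encodes the vasodilator peptide adrenomedullin. It stood at 229.6 (219 to 240.4) CPM in the members and 121 in Fcna-zero cells, and its level in uninjured cells was 235 (231 to 239.7), within counting error of the members. Of the 3, Adm alone was within counting error of the uninjured cells in summed CPM. With cells thinned to 4000 UMIs, 43.3% of the members (39.7 to 46.99) and 50.9% of the uninjured cells (49.6 to 52.1) had an Adm UMI. Of the other angiopoietin-like genes, Angptl2 was 319.8, 179 and 579 CPM in members, Fcna-zero and uninjured cells, and Angptl4, an inhibitor of lipoprotein lipase, was 268, 208 and 61.9. Fcna lies on chromosome 2 (25624666 to 25628030, minus strand), and these positions are those of the GENCODE annotation of that build.

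Genes of HSC identity were higher in the members than in Fcna-zero cells. Of 21 such genes above the filter, 12 were at least 1.5-fold higher and 0 lower, with a median log2 difference of 0.62 against 0.03 over all 7806 genes. Without cells that met a list of another cell type, 9 were higher. Colec10, Colec11, Calcrl and Lrat are on this list and on a further one below. Rgs5, a regulator of G protein signalling found in pericytes and HSCs, stood at 1346 CPM in the members, 704 in Fcna-low, 468 in Fcna-zero and 2471 in uninjured cells, a log2 difference from Fcna-zero cells of 1.53 (1.49 to 1.56). Pth1r, the parathyroid hormone receptor, was 2.49-fold above Fcna-zero cells at 1256 CPM. Vipr1, a receptor of vasoactive intestinal peptide, was 2.59-fold above at 308. Dcn, the proteoglycan decorin, had the highest level on the list, with 17786 CPM in the members and 8820.2 in Fcna-zero cells. Hhip, an inhibitor of hedgehog ligands, had 32.96 CPM against 9.75.

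The transcription factors Lhx2, Hand2, Gata4 and Tcf21 of this list differed by less than 1.5-fold between members and Fcna-zero cells. Lhx2 was 564 CPM in the members and 484 in Fcna-zero cells, Hand2 was 444 and 433, and Gata4 was 49.8 and 53.3. Tcf21 was low in every group of the library, at 16.7 (13.9 to 19.8) CPM in the members and 13.4 (12.01 to 15.01) in Fcna-zero cells, against 551 in uninjured cells, 33.1-fold above the members. Bambi, a decoy receptor that restrains TGF-beta signalling, was 487 CPM in the members and 594 in Fcna-zero cells. Pparg, a regulator of lipid storage, had no UMI in the members and 2 in Fcna-zero cells.

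Within the lectin pathway the members held more RNA of the recognition molecules and of the inhibitor. Of 5 genes above the filter besides Fcna, 4 were at least 1.5-fold higher than in Fcna-zero cells and 0 lower. Colec11 was 3926 (3883 to 3971) CPM in the members, 2135 in Fcna-low, 1478 in Fcna-zero and 6438 in uninjured cells. Colec10 was 680.4, 393, 257 and 1061 in the same order. Serping1, the inhibitor of the C1 and MASP proteases, was 1735 CPM in the members, 891 in Fcna-zero and 1558 in uninjured cells. C2, a protease substrate of the pathway, was 54.97, 35.4 and 149. The protease genes themselves were scarce, with Masp1 at 6.999 (5.27 to 9.11) CPM in the members and 5.05 (4.18 to 6.04) in Fcna-zero cells and Masp2 with 1 UMI in the members.

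Adrenomedullin binds Calcrl paired with Ramp2 or Ramp3, whereas Calcrl paired with Ramp1 is the receptor for calcitonin gene-related peptide (CGRP). Calcrl was 2.37-fold higher in the members than in Fcna-zero cells (183 against 77.3 CPM), and the CGRP receptor partner Ramp1 was 1.83-fold higher (1392 against 759). Ramp2 was 342 against 313 CPM, and Pam, the enzyme that amidates the peptide, was 1382 against 1793. Of the 5 genes of this list above the filter, 3 were at least 1.5-fold higher and 0 lower, the 3 being Adm, Calcrl and Ramp1. Adm had been named as a marker of these cells, so its place in this count adds nothing.

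Among 13 genes of retinoid and lipid storage, 5 were at least 1.5-fold higher in the members than in Fcna-zero cells and 0 lower. Lrat, which esterifies retinol for storage, was 1225 (1201 to 1249.7) CPM in the members and 797 in Fcna-zero cells. In uninjured cells it was 1253 (1243 to 1263). Plin2, a lipid droplet coat protein, was 299, 162 and 324 CPM in members, Fcna-zero and uninjured cells. Rdh10, Rxra and Pnpla2 made up the rest of the 5, with log2 differences of 0.72, 0.69 and 0.61.

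Activation genes ran the other way. Of 24 above the filter, 0 were at least 1.5-fold higher in the members than in Fcna-zero cells and 18 were lower, with a median log2 difference of -1.02. Without cells that met a list of another cell type 14 were lower, and with cells thinned to 4000 UMIs and grouped again 11 were. Col1a1, which encodes the main chain of collagen I, was 617 (599.5 to 634) CPM in the members, 1931 in Fcna-low, 3178 in Fcna-zero and 201 in uninjured cells. Acta2, smooth muscle actin, was 203 (194 to 214), 741, 1400.1 and 26.04 CPM in the same order. The members were 5.15-fold below Fcna-zero cells for Col1a1 and 6.88-fold for Acta2, and 3.07-fold and 7.81-fold above uninjured cells. Timp1, an inhibitor of matrix proteases, was 75.2 CPM in the members, 229 in Fcna-zero and 8.56 in uninjured cells. Lox, the collagen cross-linking enzyme, was 24.4, 110.4 and 2.48. Cthrc1, a secreted protein of collagen-producing cells, was 12.98, 111 and 0.172.

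Not every activation gene was graded in this way. Sparc, which binds collagen, was 8104 CPM in the members and 8078 in Fcna-zero cells, both above the 4658 of uninjured cells. Mmp2, a gelatinase, was 209 against 157 CPM and Fn1, fibronectin, 350.3 against 391. Postn, a matricellular protein, was lower in the members (230.4 CPM) than in both Fcna-zero (449) and uninjured cells (395).

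**Figure D2:**
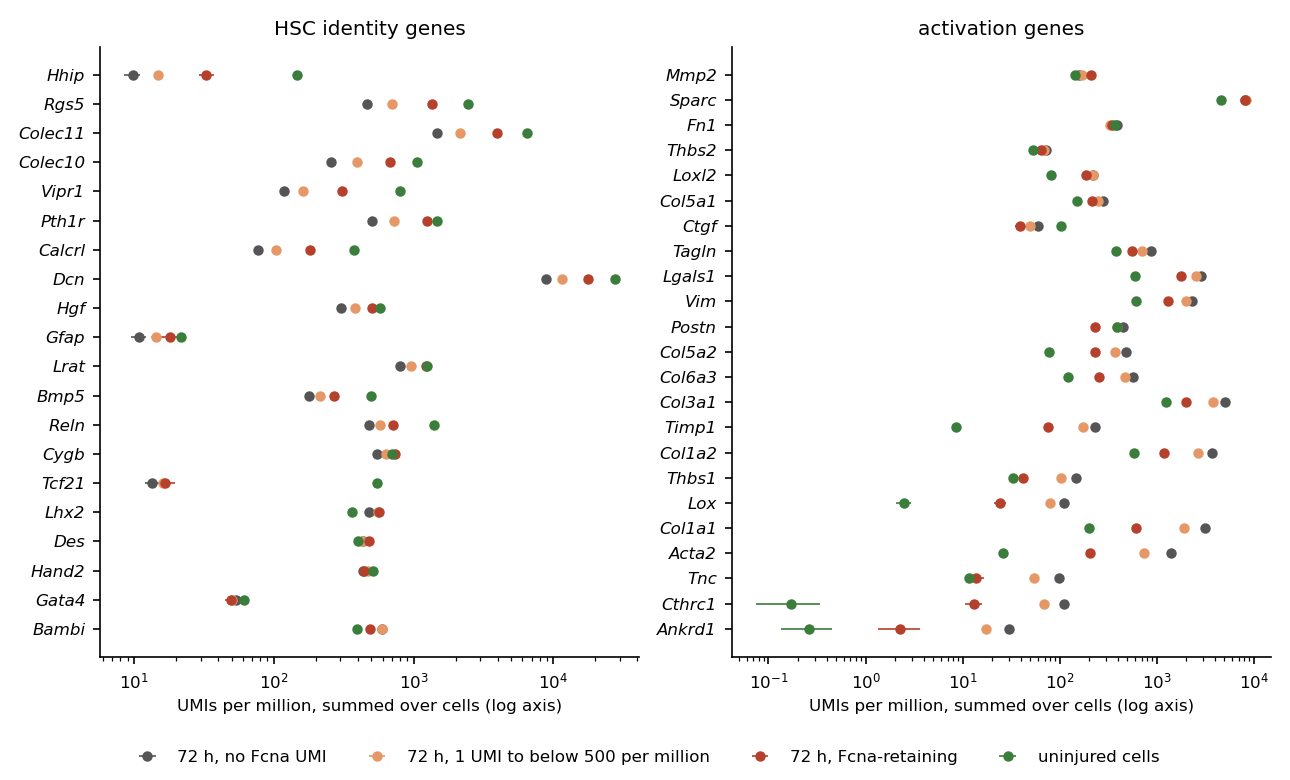
CPM on a log axis of 20 HSC identity genes (left) and 23 activation genes (right) above the filter, in the members (red), Fcna-low (orange), Fcna-zero (grey) and uninjured cells (green), ordered by the difference between members and Fcna-zero cells; bars are exact 95% Poisson intervals. The members lie above the Fcna-zero cells by 1.5-fold or more for 12 identity genes and below them by as much for 17 of the activation genes shown.

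Over all genes with at least 50 CPM in the higher group, the 10 largest folds above Fcna-zero cells were those of C6, Clec4g, Ntm, Ggt5, Itgb3, Alpl, Ecm1, Cela1, Hsd11b1 and Esam. C6, a component of the membrane attack complex of complement, was 78.8 (72.7 to 85.2) CPM in the members, 28.2 in Fcna-low, 13.3 in Fcna-zero and 38.7 in uninjured cells. It was therefore 5.93-fold above Fcna-zero cells and 2.04-fold above uninjured cells. Alpl, the tissue-nonspecific alkaline phosphatase, was also above both, at 122, 31.1 and 45.1 CPM in members, Fcna-zero and uninjured cells, as was the elastase gene Cela1 at 168, 45.3 and 88.7. Ggt5, a transpeptidase that cleaves leukotriene C4, was 142 CPM in the members and 137 in uninjured cells, and Clec4g, a C-type lectin, was 65.2 and 57.4. Hsd11b1, which regenerates active glucocorticoid, was 708 CPM in the members, 195 in Fcna-zero and 861 in uninjured cells. Itgb3, the integrin beta 3 chain, had 114, 28.97 and 88.9 CPM. Ntm and Esam, both adhesion molecules, were 2.74-fold and 1.69-fold below uninjured cells.

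The 10 largest folds below Fcna-zero cells were those of Mfap4, Wisp2, Gas6, S100a6, Dpt, Ltbp2, Cthrc1, Figf, Tnc and Acta2. S100a6, a calcium-binding protein raised in dividing and activated cells, was 72.7 (66.8 to 78.9) CPM in the members, 327 in Fcna-low, 673 in Fcna-zero and 4.42 in uninjured cells. Mfap4, a microfibril protein that is also on the fibroblast list, was 3.94, 23.8, 79.4 and 0.302. Gas6, the ligand of the TAM receptors, was 5.98 CPM in the members and 83.8 in Fcna-zero cells. Tnc, tenascin C, was 13.7 (11.3 to 16.6) CPM in the members and 11.5 (10.6 to 12.6) in uninjured cells, against 97.6 in Fcna-zero cells. Dpt, dermatopontin, is on the fibroblast list as well, whose summed level of 222 CPM in the members and 553 in Fcna-zero cells moved with these genes, and its part in them was measured only by leaving cells out.

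**Figure D3:**
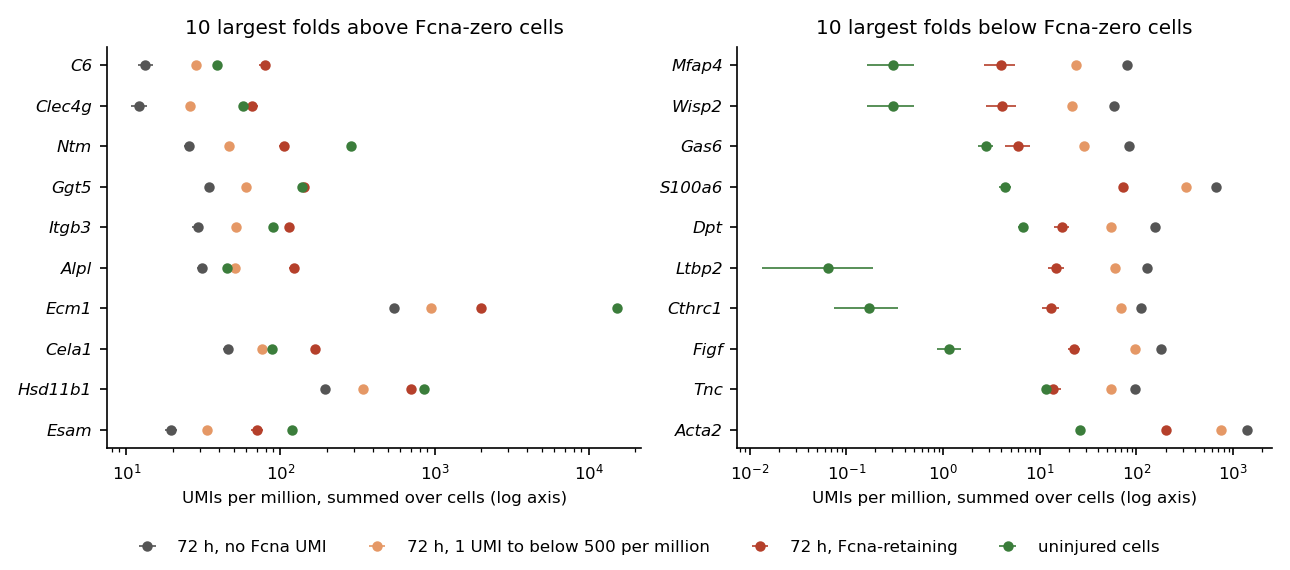
CPM on a log axis of the 10 genes with the largest fold above (left) and below (right) Fcna-zero cells, in the members (red), Fcna-low (orange), Fcna-zero (grey) and uninjured cells (green), with exact 95% Poisson intervals. Fcna-low cells lie between the members and the Fcna-zero cells for all 20 genes, while uninjured cells lie below the members for C6, Clec4g, Itgb3, Alpl and Cela1 among the higher genes, within counting error of them for Ggt5 and far above them for Ecm1.

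Signalling genes gave a mixed order. Of 11 inflammatory genes above the filter, 5 were at least 1.5-fold higher in the members than in Fcna-zero cells and 1 lower. The 5 were Ccl2 (501 against 266 CPM), Cxcl10 (294 against 143), Icam1, Irf1 and Il34, and the lower one was the neutrophil chemokine Cxcl1 (170.0 against 321). Among 13 genes of hypoxia and glycolysis, Ndufa4l2 (173 against 69.1) and the lipid droplet protein Hilpda (63.1 against 37.4) were higher and 0 were lower. Ccl2, Il34, Ndufa4l2 and Hilpda are also on the study's list of portal genes, taken up below. So are Clec4g, Itgb3, Alpl and Hsd11b1 of the largest folds above, and these results therefore overlap. The 2 metallothionein genes Mt1 and Mt2 differed by less than 1.5-fold from Fcna-zero and from uninjured cells. Of 9 heat shock genes 0 were higher and 2 lower, and of 9 immediate early genes 0 were higher and 1 lower.

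The members also differed from uninjured cells over many genes. Of the 7806 genes, 812 (10.4%) were at least 1.5-fold higher and 1479 (18.9%) at least 1.5-fold lower in the members, with a median log2 difference of -0.15. With median-ratio scaling, which set that median to 0, the counts were 1124 and 993, and as mean UMIs per cell 2815 and 270, so the balance of higher and lower genes rests on the scaling. For the Fcna-zero cells 13.3% of the genes were higher and 26.7% lower than in uninjured cells. Of the 21 HSC identity genes, 10 were lower and 2 higher in the members than in uninjured cells, and as mean UMIs per cell 3 were lower and 5 higher. Lhx2 was higher, at 564 against 362 CPM. Of the 24 activation genes 14 were higher and 3 lower, Postn and Ctgf among the lower ones.

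The 10 largest folds above uninjured cells belonged to Knstrn, Ccnb2, Cdca3, Ube2c, S100a6, Ankrd55, Cenpf, Cdc20, Gpx3 and Stmn1, most of which serve mitosis. Ccnb2, a mitotic cyclin, was 105 CPM in the members, 154 in Fcna-low, 125 in Fcna-zero and 4.94 in uninjured cells. All 5 proliferation genes (Mki67, Cdca8, Cdc20, Ccna2 and Ccnb1) were at least 1.5-fold above uninjured cells, and of 16 further genes of replication and mitosis 10 were higher and 2 lower. At least 2 UMIs of the 5 genes were found in 90 members (11.4%, interval 9.27 to 13.8), 847 Fcna-low cells (19.9%), 396 Fcna-zero cells (17.5%) and 65 uninjured cells (0.949%). With every cell thinned to 4000 UMIs, which left out 46 members, 65 Fcna-low, 140 Fcna-zero and 687 uninjured cells, the shares were 8.75%, 14.96%, 12.9% and 0.633%. The share of such cells was thus lowest in the members among the 72 h groups, at both depths. In summed levels the same 5 genes were near those of Fcna-zero cells, with 0 higher and 1 lower (Ccna2) at 1.5-fold and a median log2 difference of -0.02, and of the 16 further genes 0 were higher and 4 lower.

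The 10 largest folds below uninjured cells included those of Tcf21, Hsph1, Hspa1a, Ecm1, Igfbp3, H2-Q6, Clu, H2-T23 and Slc45a3. Hsph1 and Hspa1a encode heat shock proteins, and 8 of 9 heat shock genes were at least 1.5-fold lower in the members than in uninjured cells. Igfbp3, which binds insulin-like growth factors, was 159 CPM in the members, 282 in Fcna-zero and 873 in uninjured cells, and the chaperone clusterin (Clu) was 97.7, 102 and 467. Hspa8 was 571 CPM in the members, 762 in Fcna-zero and 1584 in uninjured cells. Of the 9 immediate early genes 6 were lower, and of 11 inflammatory genes 9, beside 18.9% of all genes, with Nfkbia at 354, 382 and 985 CPM. As mean UMIs per cell, 8 heat shock genes were again lower, but 2 immediate early genes were lower and 1 higher, and 4 inflammatory genes were lower, so these last counts rest on the scaling. The heat shock genes summed to 1183 CPM in the members, 1523 in Fcna-zero and 3622 in uninjured cells, so both 72 h groups lay below the uninjured library. The class I genes H2-Q6 and H2-T23 have close relatives between which reads may be split, so their levels are uncertain.

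The spread over cells showed how far the groups overlapped. The 22 HSC identity genes took a median of 3.35% of a member's UMIs (5th to 95th percentile 2.0997 to 4.72), 2.34% in Fcna-low, 1.83% in Fcna-zero and 4.86% in uninjured cells, and 97.2% of the members lay above the Fcna-zero median. The range from the 5th to the 95th percentile of uninjured cells held 45.2% of the members and 4.16% of the Fcna-zero cells. Activation genes took a median of 1.64% in the members (1.02 to 3.03), 2.30% in Fcna-low, 2.70% in Fcna-zero and 0.952% in uninjured cells. The uninjured range held 48.9% of the members and 10.9% of the Fcna-zero cells.

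**Figure D4:**
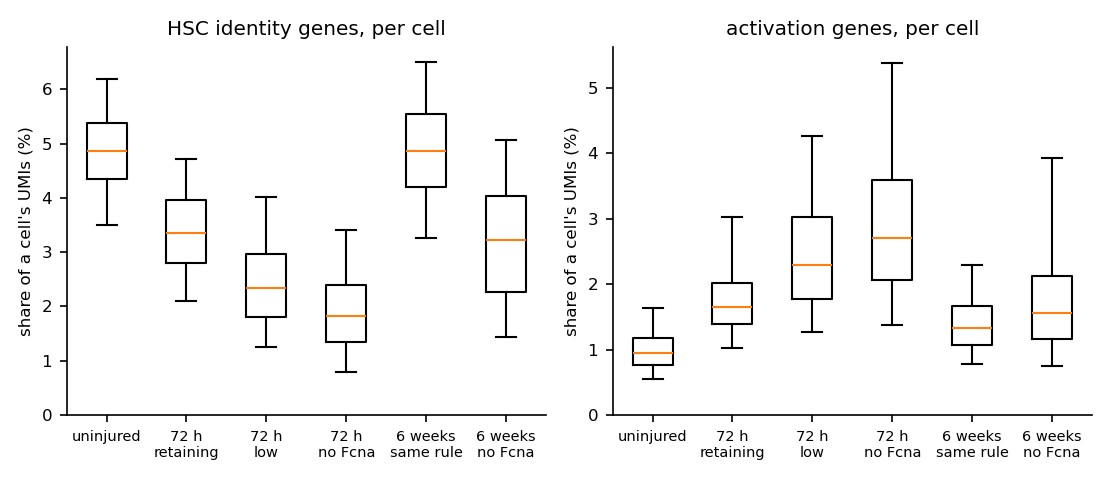
Share of a cell's UMIs (%) from the HSC identity genes without Fcna (left) and activation genes (right) in each group; lines are medians, boxes quartiles and whiskers the 5th and 95th percentiles over cells. The members lie between the uninjured and the Fcna-low cells in both panels, with medians of 3.35% and 1.64%.

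Similarity over whole profiles gave the same order within the library and a clear separation between libraries. Each cell was thinned to 4000 UMIs, and its 15 nearest neighbours were found on 30 principal components of 2000 variable genes without Fcna, Adm, Angptl6 and Ecm1. Among 72 h cells, 28.2% of the members' neighbours were members, who made up 10.5% of the cells, and 11.9% were Fcna-zero cells, who made up 30%. The members therefore gathered together without standing apart, since 59.9% of their neighbours were Fcna-low cells. When the uninjured library was added, 0.126% of the members' neighbours were uninjured cells, which made up 46.6% of all cells, and for Fcna-zero cells the share was 0.00945%. Injury and library cannot be told apart in this separation.

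Within one class of Fcna the 72 h cells still differed from uninjured ones. Between 500 and 1000 Fcna CPM there were 642 members and 578 uninjured cells, whose summed Fcna was 665 (645 to 685) and 772 (744 to 801) CPM, so the class was shared and the level was not equal. In that class Ecm1 was 1881 (1847 to 1914) CPM in the members and 13075 (12959.9 to 13191) in uninjured cells, and Angptl6 was 867 and 2573. Tcf21 was 17.4 and 524, and Rgs5 1305 and 2169.5. Lrat was 1219.6 (1193 to 1247) CPM in the members and 1191 (1156 to 1226) in uninjured cells, and Hgf, the hepatocyte growth factor, was 503 (485 to 520.2) and 513 (489.9 to 536), both within counting error. Adm was higher in the members in this class, at 221 (209 to 232) against 193 (179 to 208). Of the activation genes, Col1a1 was 664 against 313 CPM, Acta2 219 against 94.8 and Lgals1 1818 against 800.3. Dpt, which was 2.52-fold above all uninjured cells, was 18.4 against 18.5 in this class.

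Among the members themselves the levels continued along the same line. From the 642 members below 1000 Fcna CPM to the 136 between 1000 and 2000, Ecm1 went from 1881 to 2614 CPM, Angptl6 from 867 to 1089.6 and Colec11 from 3774 to 4653. Over the same step Col1a1 went from 664 to 390.5 CPM, Acta2 from 219 to 133 and S100a6 from 83.5 to 22.97. Tcf21 was 17.4 (14.3 to 20.9) and 13.02 (7.58 to 20.8) CPM, within counting error. The 11 members above 2000 CPM are too few to extend it, with Ecm1 at 2800.3 (2481 to 3149) CPM and Acta2 at 100.4 (48.1 to 185). In these 11, Col1a1 was 502 (372 to 662) CPM, Colec11 4286 (3889 to 4712) and Angptl6 1074 (880 to 1298), which did not continue the line.

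**Figure D5:**
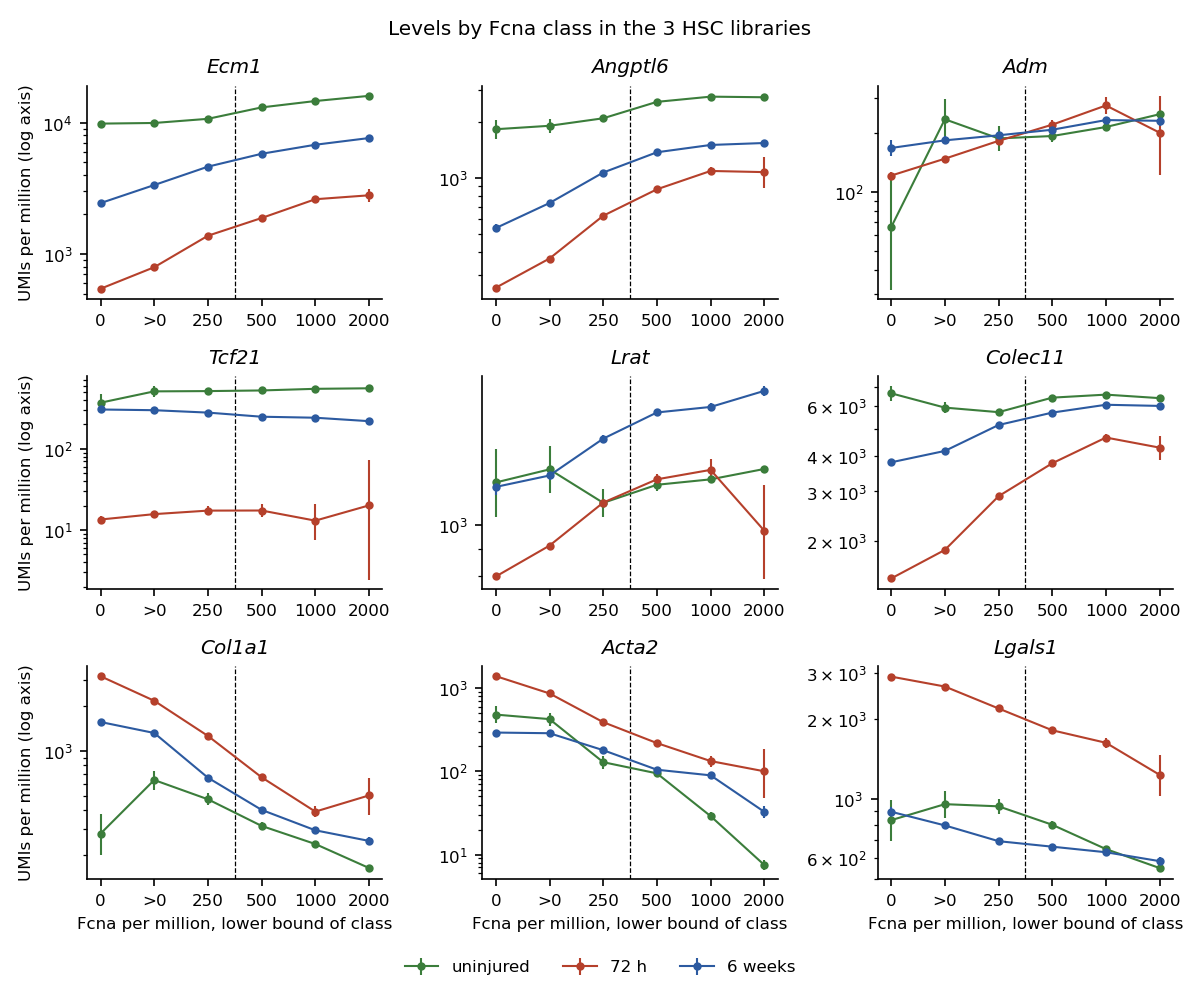
CPM on log axes of 9 genes in 6 classes of Fcna CPM (no UMI, above 0, from 250, 500, 1000 and 2000) in the uninjured (green), 72 h (red) and 6-week (blue) libraries, with exact 95% Poisson intervals; members lie right of the dashed line. In the 72 h library Ecm1, Angptl6 and Tcf21 stay below the uninjured library in every class, whereas Lrat lies within counting error of it in the class from 500 to 1000.

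Fcna and Adm are among the genes that the study lists for HSCs around the central vein, so the members were also set against its lists of 52 portal and 29 central genes, which it chose on uninjured HSCs. The study also used both lists to divide its 72 h HSCs into portal and central groups. It reported raised fibrogenic genes in the central group only, and proliferating cells in both. That division was not repeated here. In the uninjured library, cells at or above the threshold were compared with the 250 cells below it. There 1 of 52 portal genes was at least 1.5-fold higher and 31 lower, against 2.11% and 4.94% of 7819 genes, and 9 of the 27 central genes other than Fcna and Adm were higher and 0 lower. That direction is fixed in part by the choice of the lists on these cells. Acta2 moved with it, at 483 CPM in the 44 cells with no Fcna UMI and 129 in the 162 from 250 to 500. It was 94.8 CPM in cells from 500 to 1000 and 7.49 above 2000. Gpx3, on the fibroblast list, was 139, 60.5, 34.9 and 13.1 in the same order. The portal genes Myh11 and Tagln were 79.6 and 950 CPM below the threshold and 16.6 and 364 at or above it. The 44 cells had a median of 2917 UMIs, against 6754 at or above the threshold. Their part in it was not tested. At 72 h the members were compared with the other 6521 cells of their library. There 28 of 52 portal genes were higher and 1 lower, against 3.61% and 2.79% of all genes, and of the 27 central genes 3 were higher and 6 lower.

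The portal marker Ngfr, a neurotrophin receptor, is an example, and it was singled out after its values were seen, as were Rgs4 and Rspo3. In the uninjured library it was 290.0 CPM in cells at or above the threshold and 521 below it. At 72 h it was 229 CPM in the members and 128 in the other cells. Rgs4 was 105 and 211 CPM in the uninjured library and 77.7 and 36.7 at 72 h. The central gene Rspo3, which encodes an R-spondin that strengthens Wnt signalling, was 876 and 489 CPM in the uninjured library, and 847 and 947 at 72 h. Its difference at 72 h was below 1.5-fold, so it is not in the count that follows. In all, 13 portal genes and 1 central gene, Ano1, differed by at least 1.5-fold in opposite directions in the uninjured and 72 h libraries. Ano1 was 64.2 and 38.0 CPM in the uninjured library and 50.8 and 90.0 at 72 h. Such reversals were not counted over all 7819 genes, of which 4.94% were lower in the uninjured library and 3.61% higher at 72 h. With 1 library a condition the difference between the libraries was not tested.

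The library of mice given CCl4 for 6 weeks, made with the same isolation, was not used by the rule. There 2912 of 5454 cells (53.4%) met it and 410 had no Fcna UMI, the latter with a median of 5368 UMIs against 10006.5. Of 7722 genes, 3.16% were at least 1.5-fold higher and 6.09% lower in the cells that met the rule. HSC identity genes were higher for 10 of 21 and lower for 0, and activation genes lower for 13 of 24 and higher for 1, which was Postn. The fibroblast genes moved with them, with 7 of 7 lower (median log2 difference -2.69) and a median share of 0.01998% of a cell's UMIs in cells that met the rule and 0.0614% in cells without Fcna, and their part in these differences was not tested. Ecm1 had a log2 difference of 1.39 at 6 weeks and 1.89 at 72 h, Angptl6 1.43 and 1.83, Col1a1 -2.20 and -2.37, and Acta2 -1.72 and -2.78. C6 had 0.00 at 6 weeks and 2.57 at 72 h, with 88.4 and 88.1 CPM in the 6-week groups. Against the other 2542 cells of the 6-week library, 6 of the 52 portal genes were higher and 1 lower in cells that met the rule, beside 0.614% and 1.55% of all genes.

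Lists that the study drew from uninjured and 6-week cells gave counts that are not independent of these data. Of 277 markers of uninjured HSCs, 126 were at least 1.5-fold higher in the members than in Fcna-zero cells and 3 lower. The study also groups genes into modules along the passage of central vein-associated HSCs to collagen-producing cells in its chronic CCl4 data. The first module is highest in quiescent cells and the second in activated ones. Of 453 genes of the first, 138 were higher and 2 lower in the members, and of 103 genes of the second, 1 was higher and 66 lower. Against uninjured cells, where 10.4% of all genes were higher and 18.9% lower, 5 genes of the first were higher and 207 lower in the members, and 60 of the second were higher and 6 lower. The second module took a median of 1.11% of a member's UMIs, 2.35% in Fcna-zero cells and 0.935% in uninjured cells.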

How the data were processed

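The deposited 10X files hold UMI counts for each gene and cell, which the authors made with Cell Ranger 2.1.0 on mm10, per the labels and the study's methods, without normalization. Cells with at least 300 genes and at most 30% mitochondrial UMIs were kept. The members, gene lists and comparisons were chosen with earlier results of these data known. Counts were summed over the cells of a group and scaled to CPM. A gene was counted as higher or lower at a fold of 1.5, among genes with a mean of at least 10 CPM, and folds used a floor of 3 counts wherever no UMI was seen. Intervals are exact at 95%. Genes named are the members of the lists and the 10 largest folds each way from Fcna-zero and from uninjured cells, given 50 CPM or more on the higher side. There were 27 lists, of which 5 came from the study. Of the study's HSC markers 3 were not found, since a spreadsheet had turned their names into dates. Doublets were scored against simulated pairs and called at 0.8% per 1000 cells, 427 cells in the 72 h library, and in a check 37 of 100 planted doublets were recovered, so doublets remain. Alternatives were other thresholds, thinning to 4000 UMIs, leaving out doubtful cells, and other scalings and filters. Smart-seq2 plates were not used here, and a few named genes are not reported here. The tools were SciPy 1.17.1, scikit-learn 1.9.0, matplotlib 3.10.9, pandas 2.3.3 and NumPy 2.4.6 under Python 3.11.15.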

Additional observations from a re-analysis of the deposited data

Results flagged for a closer look

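The median over the portal genes had opposite signs in the uninjured and the 72 h library, with 13 of 52 genes at least 1.5-fold apart in opposite directions. That count of genes was not taken over all genes. The sign in the uninjured library is fixed in part, since the list was chosen on those cells. Acta2 and the fibroblast gene Gpx3 were also higher in the uninjured cells below the threshold, and their part was not tested. Cells at or above 500 Fcna CPM had a median log2 difference from the other cells of -0.70 over 52 portal genes in the uninjured library and of 0.62 at 72 h. For 27 central genes the medians were 0.35 in the uninjured library and -0.17 at 72 h. Over all 7819 genes they were -0.04 and 0.03. Postn was lower in the members than in Fcna-zero cells at 72 h (log2 difference -0.96) and higher in the cells that met the same rule at 6 weeks (0.69). Each of these differences lies between single libraries and was not tested.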

How the results depend on the processing

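Of 139 alternative values of the counts and of the share, 112 stayed within 1.5 times the reported count or within the interval of the share. The share of members was 19.4% with cells thinned to 4000 UMIs, 28.3% at a threshold of 250, 2.01% at 1000 and 12.8% without cells that met a list of another cell type. Against Fcna-zero cells, thinning with the groups set again gave 11 activation genes lower, and 226 genes higher and 157 lower in all. The threshold of 250 gave 297 and 188, and that of 1000 gave 797 and 596. A minimum of 50 CPM gave 245 and 85, no filter 3795 and 2277, and a fold of 2 gave 148 and 111. Against uninjured cells, mean UMIs per cell gave 3 identity genes lower and, over all genes, 2815 higher and 270 lower. A minimum of 50 CPM gave 383 and 423, no filter 5373 and 3151, and a fold of 2 gave 344 and 422, with 4 identity genes lower. With the groups kept and only the counts thinned, an alternative added after the data were seen, none of the 8 counts of identity, activation and all genes moved by more than 1.5 times, and the same held for the portal genes under 7 added alternatives (24 to 28 higher). Of 4175 alternative log2 differences of 167 named genes under 13 alternatives, 1355 moved beyond the counting interval and 6 turned round. Alb was 0.36 and Apoa1 0.50 (log2, members against Fcna-zero cells) without called doublets, and 0.34 and 0.40 without cells that met a list. Hspa1b was 0.19 at a threshold of 1000, and Dpt was -0.0071 against uninjured cells of the same Fcna class. The causes were not tested. No paired analysis was possible because each condition was 1 pooled library.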
